A study of Mus musculus with 16 samples.

Results

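MAPK feedback genes were followed in the left lung of mice exposed to second-hand smoke. They comprise 4 dual-specificity phosphatases (Dusp1, Dusp4, Dusp5 and Dusp6), 3 Sprouty genes (Spry1, Spry2 and Spry4) and 2 Spred genes (Spred1 and Spred2). All probe sets whose symbol in the platform annotation was 1 of these 9 genes were taken, which gave 24 of the 45037 probe sets tested. Spred1 had 8 probe sets, Spred2 had 5, Spry4 had 4, Spry2 had 2 and each other gene had 1. For each gene the probe set with the highest mean over the samples, called its brightest, leads the description.

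The animals were male Balb/c mice, 15 weeks old, with 4 arrays of total RNA in each of 4 groups. Smoke was sidestream smoke at 10 mg/m3 of suspended particles given 5 hours daily, 7 days a week, and the comparison gas was filtered air. SS lungs had smoke both in utero and in adult life, AS lungs had air in utero and smoke as adults, SA lungs had smoke in utero and air as adults, and AA lungs had air at both times. The labels give no litter, batch or hour of collection.

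The mitogen-activated protein kinase (MAPK) cascade carries growth factor and stress signals to the kinases ERK, JNK and p38, and reaches ERK through Ras and Raf. Its activity is limited by proteins whose own genes are switched on by the cascade, so their transcripts are widely used as a readout of recent signalling. Dusp proteins remove phosphate from the MAP kinases themselves, while Sprouty and Spred proteins act further upstream, between the receptor and Raf. In the lung, Sprouty genes are known for limiting fibroblast growth factor signalling during branching of the airways.

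Promoters are shown for Dusp1 and Dusp6, which were called between groups below. That of Dusp5, another inducible phosphatase gene but not called there, is shown for its motifs. Each runs from 250 bases before the gene's start to 50 bases after it, in the gene's own direction, and was taken from RefSeq on build GRCm38.p6. Capitals mark matches on either strand to the cyclic AMP response element (CRE, TGACGTCA), the shorter core of it (CRE core, TGACG), AP-1 (TGANTCA), ETS (CCGGAA), the TATA box (TATAAA), the glucocorticoid response element and the CArG box, the site bound by serum response factor.
Dusp1, chr17:26508423-26508722, minus strand: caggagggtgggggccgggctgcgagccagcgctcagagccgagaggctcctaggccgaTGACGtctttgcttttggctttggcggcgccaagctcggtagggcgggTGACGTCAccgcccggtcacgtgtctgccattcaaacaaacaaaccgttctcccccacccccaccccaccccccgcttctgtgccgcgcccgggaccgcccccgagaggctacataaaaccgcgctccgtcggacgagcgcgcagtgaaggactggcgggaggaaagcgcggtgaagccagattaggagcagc
Dusp5, chr19:53528895-53529194, plus strand: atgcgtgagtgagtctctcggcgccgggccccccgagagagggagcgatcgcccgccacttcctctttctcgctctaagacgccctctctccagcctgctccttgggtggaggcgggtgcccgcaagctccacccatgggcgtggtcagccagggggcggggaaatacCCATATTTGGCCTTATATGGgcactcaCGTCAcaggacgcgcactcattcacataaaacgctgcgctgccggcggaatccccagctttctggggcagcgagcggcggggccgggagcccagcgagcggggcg
Dusp6, chr10:99262981-99263280, plus strand: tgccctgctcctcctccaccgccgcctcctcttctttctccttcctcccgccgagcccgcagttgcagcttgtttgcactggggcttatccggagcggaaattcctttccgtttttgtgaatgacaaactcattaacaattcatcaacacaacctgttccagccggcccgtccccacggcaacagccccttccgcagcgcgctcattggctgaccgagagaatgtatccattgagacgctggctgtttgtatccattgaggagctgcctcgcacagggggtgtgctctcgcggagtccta
The Dusp1 window held a full CRE that starts 143 bases upstream of the gene's start, which contains a CRE core on each strand, and a further CRE core 191 bases upstream. The Dusp5 window held adjacent CArG boxes that start 82 and 72 bases upstream and a CRE core 55 bases upstream. The Dusp6 window held none of the capitalised motifs, and neither did that of Spry1, which was also called below and is not shown.

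Promoters were matched by symbol for 7 of the 9 genes, all but Dusp4 and Spry4. The full CRE was in 1 of these 7 and in 1.79% of all 32851 promoters of the same length, and the CRE core was in 3 of 7 and in 20.8%. The CArG box was in 1 of 7 and in 1.63% of all promoters. ETS was in 1 of 7 (14.9% of all), the GC box (GGGCGG, not capitalised here) in 5 of 7 (35.7%), and AP-1, the TATA box, the glucocorticoid response element and the NF-kB site in 0 of 7 (7.81%, 13.6%, 0.475% and 8.46% of all). A match describes letters in this window, not binding by a factor.

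SS replicates 1 and 2, and AS replicates 3 and 4, differed by little more than technical noise, although the labels describe separate animals, so each pair was averaged and counted as 1 sample (SS 1+2 and AS 3+4). This left 3 SS, 3 AS, 4 SA and 4 AA samples. Values are listed in replicate order, with the averaged sample first in SS and last in AS. Over the 24 member probe sets, the median absolute log2 difference was 0.054 between the SS arrays and 0.076 between the AS arrays. AS 3+4 stood apart from the other AS samples over all probe sets and had the lowest estimated array weight, 0.265. Defining lung markers were bright in every sample, with log2 values of 15.01 to 15.1 for the surfactant gene Sftpc and 14.29 to 14.64 for Ager, a marker of type 1 alveolar cells. These are whole-lung values, in which fewer cells of a type and less RNA per cell cannot be told apart.

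After air in utero, 3 of the 9 genes were higher in adult lungs exposed to smoke (AS) than in lungs kept in air (AA): the phosphatase genes Dusp1 and Dusp6, and Spry4 at each of its 4 probe sets. Differences are on the log2 scale, AS minus AA, with standard errors from limma, and a call means an adjusted p under 0.05 over all probe sets. Calls numbered 6 of 24 member probe sets, all higher in AS, where 1.55% of all 45037 probe sets were called in either direction and 0.591% were higher. The median difference over the 9 brightest member probe sets was 0.19, against 0.016 over the brightest probe sets of all 18193 genes.

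Among the phosphatases, Dusp1 encodes a nuclear enzyme that inactivates p38, JNK and ERK and is itself a classic immediate early gene. It had log2 values of 14.23, 14.21 and 13.72 in AS lungs, against 13.41, 13.50, 13.06 and 13.32 in AA lungs. All AS samples lay above all AA samples, with AS 3+4 the lowest of the AS values. The group means were 14.06 ± 0.29 in AS (SD, n = 3) and 13.32 ± 0.19 in AA (SD, n = 4). The difference was 0.73 ± 0.14 (1.66-fold; limma adjusted p = 0.0259). The call was lost without AS replicate 1, AS replicate 2 or AA replicate 3 (highest limma adjusted p = 0.0616), and when the fit held the AS and AA samples alone (limma adjusted p = 0.112).

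Dusp6, a cytoplasmic phosphatase selective for ERK, had log2 values of 12.82, 12.86 and 12.92 in AS lungs, against 12.34, 12.41, 12.41 and 12.38 in AA lungs. The groups were tight and did not overlap. Dusp6 averaged 12.87 ± 0.052 in AS (SD, n = 3) and 12.39 ± 0.032 in AA (SD, n = 4). The difference was 0.48 ± 0.08 (1.39-fold; limma adjusted p = 0.00971). Here AS 3+4 was the highest of the AS samples, and the call held in 14 of 14 fits that left out 1 sample.

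Dusp5, a nuclear phosphatase selective for ERK, had log2 values of 8.44, 9.12 and 8.28 in AS lungs, against 7.85, 8.13, 8.32 and 8.26 in AA lungs. A single sample, AS replicate 2, stood well above the others, and AS 3+4 lay within the AA range. The difference of 0.48 ± 0.16 missed the threshold (limma adjusted p = 0.125). Dusp4, a nuclear phosphatase induced by ERK signalling, differed by 0.05 ± 0.09 (95% interval -0.14 to 0.24, limma adjusted p = 0.782), with values of 8.36 to 8.56 in AS and 8.40 to 8.46 in AA.

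Among the Sprouty genes, whose products inhibit receptor tyrosine kinase signalling, Spry4 had the largest difference of the 9 genes. Its brightest probe set, 1440867_at, had log2 values of 9.86, 10.41 and 10.38 in AS lungs, against 8.66, 8.99, 9.15 and 9.11 in AA lungs. The groups were 0.71 apart at their nearest samples, and AS 3+4 was close to the highest AS sample. The difference was 1.24 ± 0.19 (2.37-fold; limma adjusted p = 0.00806).

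The other Spry4 probe sets moved the same way and also did not overlap between AS and AA. They differed by 1.51 at 1422021_at (limma adjusted p = 0.00426), 1.31 at 1422020_at (limma adjusted p = 0.0129) and 1.01 at 1445669_at (limma adjusted p = 0.0464). The brightest probe set and 1422021_at kept their calls in 14 of 14 fits that left out 1 sample. At 1422020_at the call was lost without AS 3+4 (limma adjusted p = 0.0511). At 1445669_at only 2 of the 14 fits kept it, those without AS replicate 1 and without SS replicate 3, and the highest limma adjusted p was 0.0999.

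**Figure D1:**
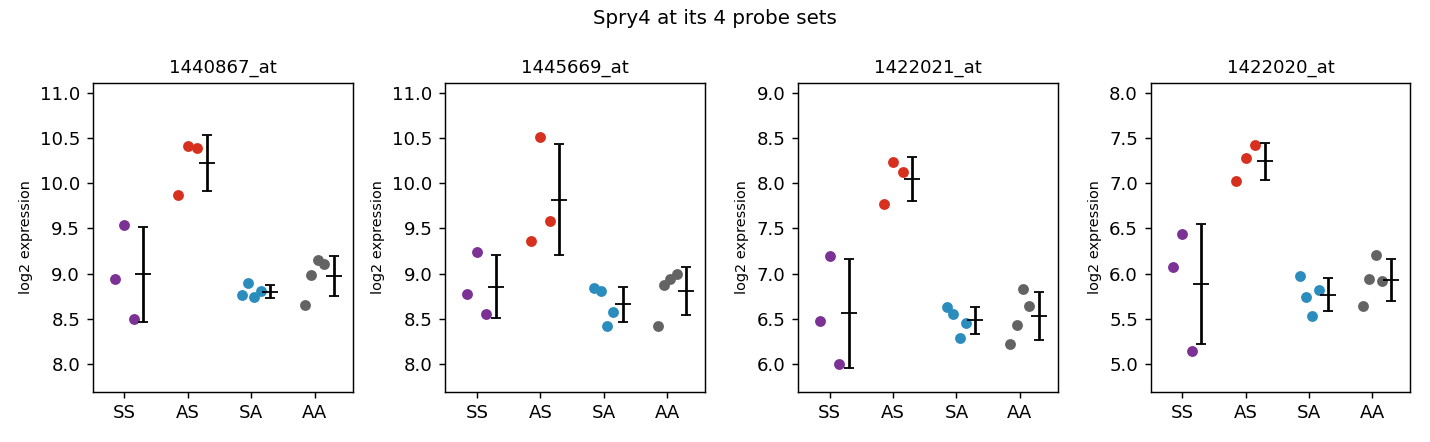
Log2 expression of Spry4 at each of its 4 probe sets, with 1 point per sample, groups in the order SS, AS, SA and AA, and black bars for the mean and SD. The AS points lie above all other groups at each probe set, and SS replicate 3 is the highest SS sample at each.

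Spry1 had log2 values of 12.16, 12.05 and 11.79 in AS lungs, against 11.90, 11.72, 11.94 and 11.70 in AA lungs. AS 3+4 lay inside the AA range, and the difference of 0.19 ± 0.09 was not called (limma adjusted p = 0.274). Spry2 differed by 0.07 ± 0.13 at its brightest probe set (95% interval -0.21 to 0.34, limma adjusted p = 0.796) and by 0.11 at its dimmer one.

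The Spred genes encode membrane-bound inhibitors that hold back activation of Raf by Ras. At the brightest probe set of Spred1, AS lungs had 10.47, 10.56 and 10.35, against 10.58, 10.61, 10.64 and 10.61 in AA lungs. The AS samples lay below the AA samples, but the difference of -0.15 ± 0.06 was not called (limma adjusted p = 0.205). The other 7 Spred1 probe sets differed by -0.24 to 0.10. Spred2 differed by -0.03 ± 0.07 at its brightest probe set (limma adjusted p = 0.817), and its other 4 ranged from -0.51 at 1436892_at (limma adjusted p = 0.131) to 0.15. At 1436892_at the AS samples stood at -0.26, -0.25 and -1.02 relative to the AA mean, the last being AS 3+4, and without AS 3+4 the difference was -0.26 ± 0.14 (limma adjusted p = 0.439).

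**Figure D2:**
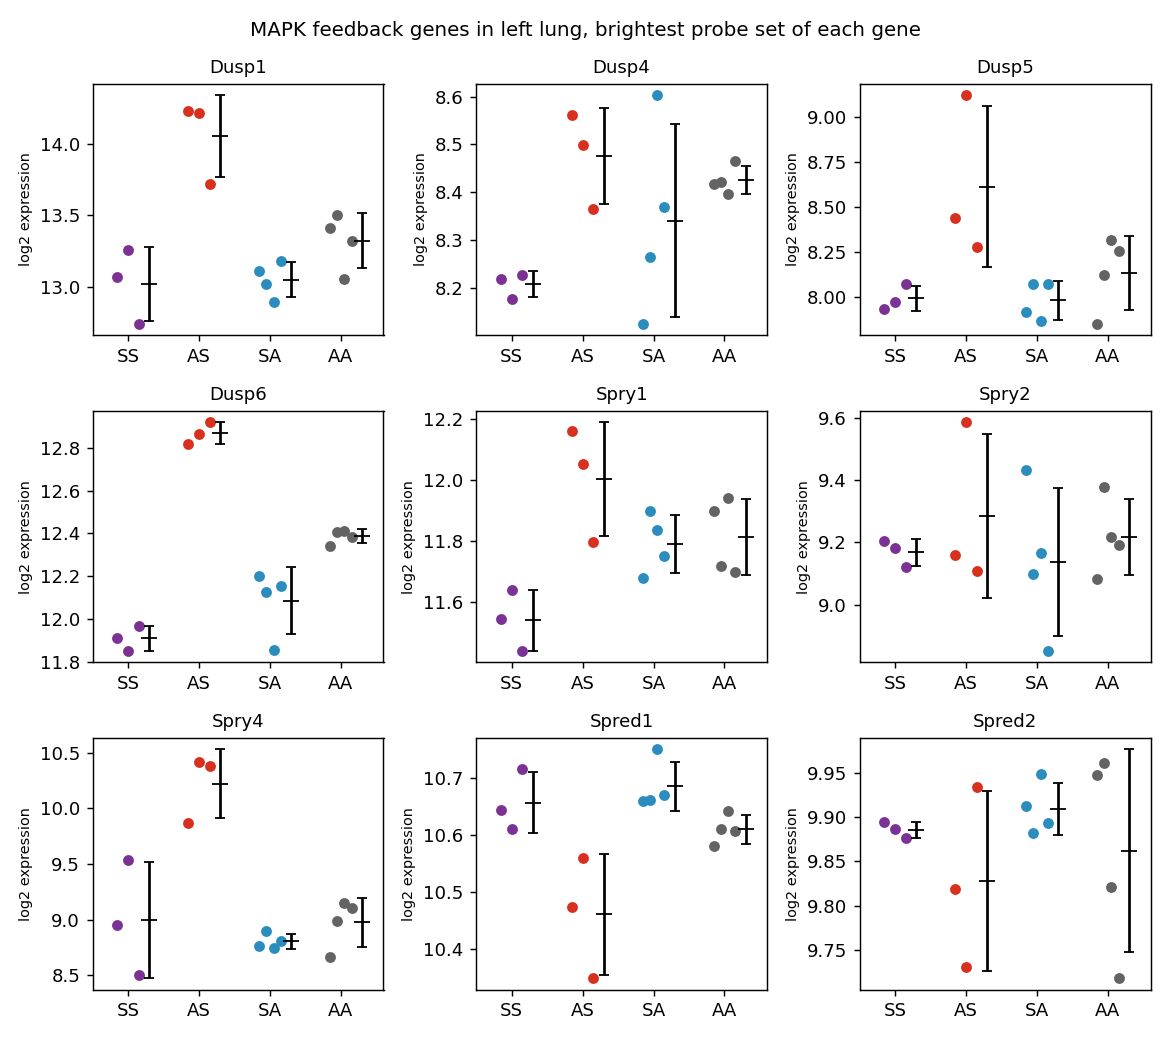
Log2 expression of the 9 genes at their brightest probe sets, with 1 point per sample, groups in the order SS, AS, SA and AA, black bars for the mean and SD, and a separate vertical range for each gene. Dusp1, Dusp6 and Spry4 are highest in AS, and the 3 SS samples of Dusp6 lie between 11.85 and 11.97, below all AS and AA samples.

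The same adult smoke after smoke in utero (SS minus SA) called 0 of the 24 member probe sets in limma, where 1.64% of all probe sets were called. An unadjusted p under 0.05 was found at 4 of the 24, beside 6520 of all 45037 probe sets. Dusp1 had log2 values of 13.07, 13.25 and 12.74 in SS lungs, against 13.11, 13.02, 12.89 and 13.18 in SA lungs, so the groups overlapped throughout. Its difference was -0.03 ± 0.14, with a 95% interval of -0.34 to 0.28. Spry4 had 8.95, 9.54 and 8.50 in SS lungs, against 8.77, 8.90, 8.74 and 8.81 in SA lungs at its brightest probe set. The SS samples spread on both sides of the SA range, with SS replicate 3 the highest. The Spry4 difference was 0.19 ± 0.19 (95% interval -0.23 to 0.61, limma adjusted p = 0.715) and was -0.08 without SS replicate 3.

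Dusp6 had log2 values of 11.91, 11.85 and 11.97 in SS lungs, against 12.20, 12.13, 11.85 and 12.15 in SA lungs. SA replicate 3 was as low as the lowest SS sample, and the other SA samples lay above all SS samples. The difference of -0.18 ± 0.08 was not called (limma adjusted p = 0.318). Spry1 had 11.54, 11.64 and 11.44 in SS lungs, against 11.68, 11.90, 11.84 and 11.75 in SA lungs, and these groups did not overlap. Its difference of -0.25 ± 0.09 also missed the threshold (limma adjusted p = 0.234).

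The differences of Dusp4, Dusp5, Spry2, Spred1 and Spred2 in SS against SA were between -0.13 and 0.03 at their brightest probe sets. A dimmer Spred2 probe set, 1441802_at, differed by 0.31 ± 0.09 without overlap (limma adjusted p = 0.0987). It passed the threshold with array weights, with the SS and SA samples fitted alone, and with the 16 arrays counted separately. The median over the 9 brightest member probe sets was -0.03, against -0.0072 over all genes.

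**Figure D3:**
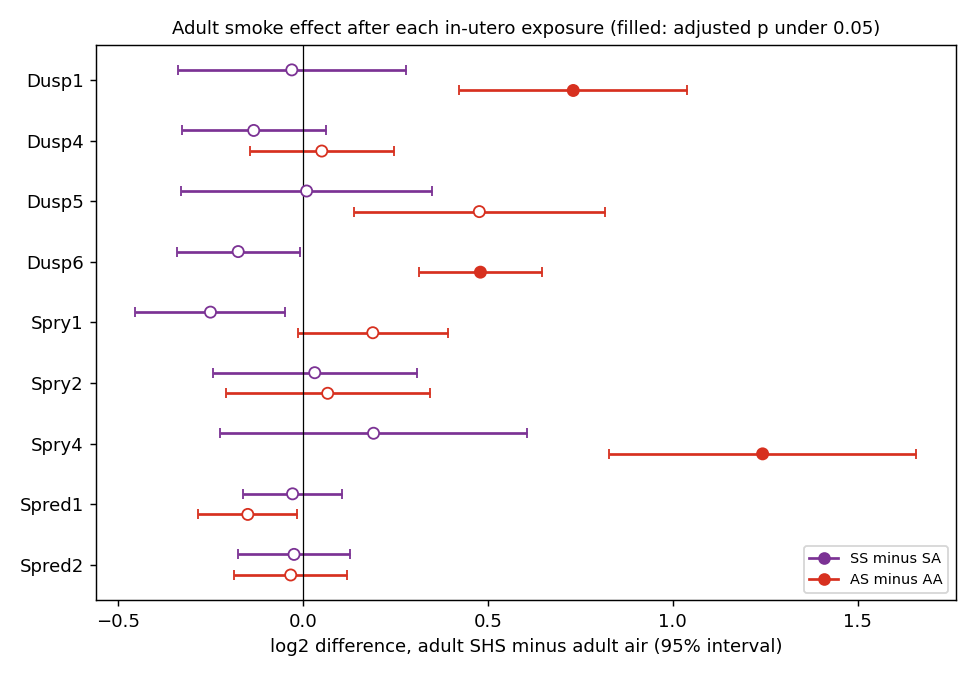
Log2 differences between adult smoke and adult air for the 9 genes at their brightest probe sets, with 95% intervals, after smoke in utero (SS minus SA, purple) and after air in utero (AS minus AA, red). Filled points mark an adjusted p under 0.05, which are Dusp1, Dusp6 and Spry4 in AS minus AA and no gene in SS minus SA.

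Whether the adult effect differed with the exposure in utero was tested by the interaction, (SS minus SA) minus (AS minus AA). Dusp6 alone was called among the 24 member probe sets, where 0.131% of all probe sets were called and 0.0488% were called in the same direction. Its interaction was -0.66 ± 0.11 (limma adjusted p = 0.0325), made of a difference of -0.18 after smoke in utero and 0.48 after air in utero. The call held in 4 of 14 fits that left out 1 sample. It was lost without any of the SS or AA samples, AS replicate 2, SA replicate 2 or SA replicate 4, with a highest limma adjusted p of 0.109, while the value stayed between -0.73 and -0.62.

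For the other genes the interaction did not pass in the main fit. It was -1.05 ± 0.28 for Spry4 at its brightest probe set (limma adjusted p = 0.181), -1.44 ± 0.30 at 1422021_at (limma adjusted p = 0.0862) and -0.76 ± 0.20 for Dusp1 (limma adjusted p = 0.197). The effects of adult smoke on Spry4 and Dusp1, called after air in utero and not after smoke in utero, are therefore not shown to differ between the 2 backgrounds. Spry1 had an interaction of -0.44 ± 0.13 (limma adjusted p = 0.267) and Dusp5 of -0.47 ± 0.22 (limma adjusted p = 0.56). The interaction of Spry4 at its brightest probe set passed the threshold in 2 of 22 alternatives (lowest limma adjusted p = 0.0272).

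Averaged over both backgrounds, the adult effect was called at 4 of the 24 probe sets, the 4 of Spry4, where 5.95% of all probe sets were called and 2.82% were higher. It was 0.72 ± 0.14 at the brightest of them (limma adjusted p = 0.0105). Dusp1 had a mean effect of 0.35 ± 0.10 (limma adjusted p = 0.0552) and Dusp6 of 0.15 ± 0.05 (limma adjusted p = 0.106). The Dusp1 mean effect sat close to the threshold and passed it in 10 of 22 alternatives (lowest limma adjusted p = 0.0123), and that of Dusp6 in 1 of 22 (limma adjusted p = 0.0411). These averages contain the AS minus AA differences given above. The calls at 1440867_at and 1422021_at held in 14 of 14 fits that left out 1 sample. At 1422020_at the call was lost without SS 1+2 or SS replicate 3, and at 1445669_at it was kept in 2 of the 14, without AS replicate 1 or SS replicate 4.

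Among adults that had smoke, Dusp1, Dusp6, Spry1 and Spry4 were lower in lungs with smoke in utero (SS) than in lungs with air in utero (AS). The comparison SS minus AS called 6 of the 24 member probe sets, all lower in SS, where 0.968% of all probe sets were called and 0.357% were lower. It shares the AS samples with AS minus AA and the SS samples with SS minus SA. The median over the 9 brightest member probe sets was -0.46, against -0.018 over all genes.

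Dusp6 had 11.91, 11.85 and 11.97 in SS lungs, against 12.82, 12.86 and 12.92 in AS lungs. The nearest SS and AS samples were 0.85 apart, several times the SD of 0.059 in SS and 0.052 in AS. The difference was -0.96 ± 0.08 (1.94-fold lower; limma adjusted p = 8.65e-05), and it was called in 14 of 14 fits that left out 1 sample.

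Dusp1 had log2 values of 13.07, 13.25 and 12.74 in SS lungs, against 14.23, 14.21 and 13.72 in AS lungs, without overlap. It differed by -1.03 ± 0.15 (2.05-fold lower; limma adjusted p = 0.00531). Spry4 had 8.95, 9.54 and 8.50 in SS lungs, against 9.86, 10.41 and 10.38 in AS lungs, again without overlap, although SS replicate 3 came within 0.33 of AS replicate 1. Its difference was -1.22 ± 0.21 (2.34-fold lower; limma adjusted p = 0.0118). The Spry4 call was lost without SS 1+2 (limma adjusted p = 0.0567) or SS replicate 4 (limma adjusted p = 0.0507).

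Of the other Spry4 probe sets, 1422021_at differed by -1.48 (limma adjusted p = 0.00636), 1422020_at by -1.35 (limma adjusted p = 0.0142) and 1445669_at by -0.96 (limma adjusted p = 0.0936). Without AS 3+4 the call at 1422020_at was lost (limma adjusted p = 0.0502). When the SS and AS samples were fitted alone, Dusp6 was the 1 member still called, and Dusp1 had a limma adjusted p of 0.0588 and Spry4 of 0.108.

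Spry1 had 11.54, 11.64 and 11.44 in SS lungs, against 12.16, 12.05 and 11.79 in AS lungs. The SS samples lay below all AS samples, with AS 3+4 the nearest. The difference was -0.46 ± 0.10 (1.38-fold lower; limma adjusted p = 0.0439). This call sat close to the threshold. It was lost without AS replicate 1, AS replicate 2, AA replicate 1 or any SS or SA sample, with a highest limma adjusted p of 0.186.

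Members below the threshold in SS against AS included Dusp5 at -0.62 ± 0.17 (limma adjusted p = 0.109) and Dusp4 at -0.27 ± 0.10 (limma adjusted p = 0.239), both without overlap between the groups. The brightest Spred1 probe set differed by 0.20 ± 0.07, also without overlap (limma adjusted p = 0.207). Among 23 alternatives, Dusp5 passed the threshold in 4 (lowest limma adjusted p = 0.0391) and this Spred1 probe set in 1 (limma adjusted p = 0.0402). Over its 8 probe sets Spred1 ranged from -0.16 to 0.20. Spry2 and Spred2 differed by -0.12 and 0.06 at their brightest probe sets.

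In adults kept in air, smoke in utero (SA minus AA) called 0 of the 24 member probe sets in limma, as 0.0% of all probe sets were called. An unadjusted p under 0.05 was found at 2 of the 24, beside 2808 of all 45037 probe sets. The lower of the 2 member values was at Dusp6, which had 12.20, 12.13, 11.85 and 12.15 in SA lungs, against 12.34, 12.41, 12.41 and 12.38 in AA lungs. The groups did not overlap, with SA replicate 3 the lowest. The difference was -0.30 ± 0.07 (limma adjusted p = 0.625; before adjustment limma gave 0.000817). Dusp1 differed by -0.27 ± 0.13 and Spry4 by -0.17 ± 0.18, and the other 6 genes by -0.15 to 0.08.

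With smoke at both times against neither (SS minus AA), 1 of the 24 member probe sets was called, where 0.4% of all probe sets were called and 0.215% were lower. Dusp6 was lower, with a difference of -0.48 ± 0.08 (1.39-fold lower; limma adjusted p = 0.0172), with 11.85 to 11.97 in SS and 12.34 to 12.41 in AA. The call was lost without SS 1+2, SS replicate 3, SS replicate 4 or AA replicate 2 (highest limma adjusted p = 0.132). Spry4 differed by 0.02 ± 0.19, Dusp1 by -0.30 ± 0.14 (limma adjusted p = 0.495) and Spry1 by -0.27 ± 0.09 (limma adjusted p = 0.3).

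By group means, Dusp6 thus ran AS 12.87, AA 12.39, SA 12.09 and SS 11.91, and the neighbours AA and SA, and SS and SA, did not differ past the threshold. Spry4 ran AS 10.22, SS 8.995, AA 8.98 and SA 8.80, and Dusp1 ran AS 14.06, AA 13.32, SA 13.05 and SS 13.02. For both of these genes the groups below AS did not differ from each other past the threshold.

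**Figure D4:**
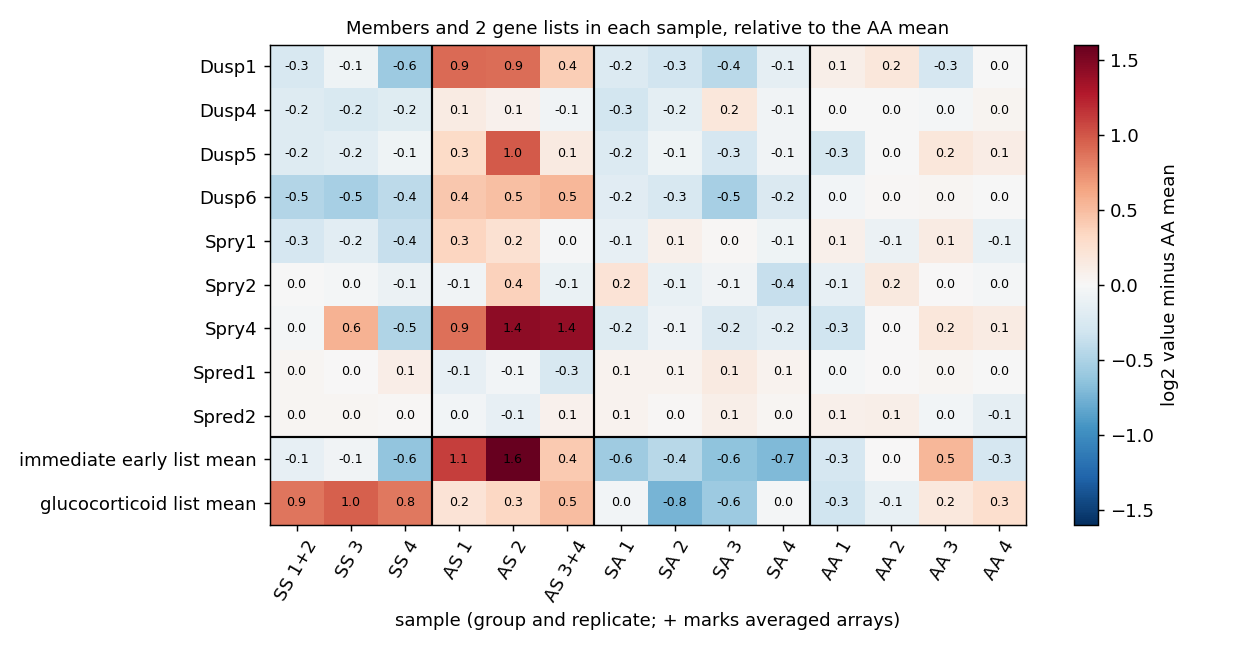
Log2 value minus the AA mean for the 14 samples, with the 9 genes in the upper rows at their brightest probe sets and the mean of 22 immediate early genes and of 12 glucocorticoid-induced genes below the line. In AS 3+4, Spry4 and Dusp6 are as high as in AS replicates 1 and 2, while Dusp1 and the immediate early mean are lower there.

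Immediate early genes, which are transcribed within minutes of stimulation without new protein synthesis, were set beside the members. Over all 18193 genes at their brightest probe sets, 1.91% were called in SS against SA, 1.12% in AS against AA, 0.764% in SS against AS and 0.115% in the interaction. Of all 45037 probe sets, those with an unadjusted p under 0.05 numbered 6520, 9154, 6132 and 4105 in the same order. All 22 on the list were measured, and 7 were higher and 0 lower in AS than in AA, with a median of 1.03. The called genes included Csrnp1 (1.70), Zfp36 (1.32), Ier2 (1.22), Junb (1.19), Maff (1.04) and Klf2 (0.98), most of them transcription factors. In SS against AS 11 of 22 were lower and 0 higher, with a median of -1.37, among them Egr1 (-2.43), Fosb (-2.36) and Fos (-2.25). In SS against SA 2 were higher, Maff (1.40) and Csrnp1 (1.03), and 1 lower, Ier3 (-0.62).

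Relative to the AA mean, the mean of the 22 genes was -0.13, -0.05 and -0.63 in SS, 1.11, 1.59 and 0.42 in AS, -0.57, -0.45, -0.65 and -0.71 in SA, and -0.27, 0.00, 0.54 and -0.27 in AA. AS 3+4 lay inside the AA range on this mean. Spry4 in that sample was 1.41 and Dusp6 0.53 above their AA means, while Dusp1 was 0.40 and Dusp5 0.14 above. The part of the immediate early level in the members' differences was not tested.

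Glucocorticoid-induced genes were counted in the same way. In SS against SA 9 of 12 were higher and 0 lower (median 1.23), and in AS against AA 1 of 12 was higher, Errfi1 (median 0.44). The interaction, which tests whether the adult effect differed between the backgrounds, was called for 0 of the 12 in limma, with 7 at an unadjusted p under 0.05 and a median of 0.68, so such a difference was not shown for this list. Dusp1, whose values are given above, is itself known as a glucocorticoid-induced gene, and the part of these genes' level in its differences was not tested. The mean of the 12 genes relative to the AA mean was 0.84 to 0.96 in SS, 0.22 to 0.49 in AS, -0.75 to -0.03 in SA and -0.31 to 0.27 in AA.

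Other phosphatases of the family included 10 measured genes. In AS against AA 2 were higher and 0 lower. Dusp2, a nuclear phosphatase of activated lymphocytes, differed by 0.71 (limma adjusted p = 0.0111) and Dusp8, which acts on JNK and p38, by 0.69 (limma adjusted p = 0.0367). In SS against SA 1 was higher, Dusp16, a phosphatase selective for JNK and p38. Dusp16 had 11.44, 11.41 and 11.34 in SS lungs, against 10.67, 10.58, 10.72 and 10.57 in SA lungs, without overlap. It differed by 0.76 (limma adjusted p = 0.000753). Its interaction was 0.74 (limma adjusted p = 0.0197), opposite in sign to that of Dusp6. In SS against AS Dusp16 differed by 0.74 and Dusp2 by -0.76, both called.

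Other feedback genes of the ERK pathway included 16 measured genes. Errfi1, which encodes an inhibitor of the epidermal growth factor receptor, was higher by 1.02 in AS than in AA (limma adjusted p = 0.0401) and by 1.28 in SS than in SA (limma adjusted p = 0.0101). It was the 1 gene called in AS against AA, and it is on the glucocorticoid list too. In SS against SA, Lrig3 differed by -0.52 (limma adjusted p = 0.01) and Il17rd, whose product inhibits fibroblast growth factor signalling, by -0.41 (limma adjusted p = 0.0131). In SS against AS 0 of the 16 were called in limma, and 4 had an unadjusted p under 0.05.

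The core of the ERK cascade, with 12 of 18 genes measured, had 0 called in limma in AS against AA, SS against SA and SS against AS, where 2, 1 and 1 genes had an unadjusted p under 0.05. The widest difference in AS against AA was that of Sos1, a Ras activator, at -0.23 (limma adjusted p = 0.128). Transcription factors and other targets of ERK, with 13 of 14 measured, had 0 called in AS against AA and 5 with an unadjusted p under 0.05, among them Egr1 at 0.89 (limma adjusted p = 0.233). Egr1 (-2.43) and Ier3 (-1.18) were lower in SS than in AS, and both are also on the immediate early list.

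Pattern likeness was taken as the root mean square difference between log2 values over the 14 samples, each probe set centred on its own mean, so smaller is more alike. For Spry4, whose own values varied by 0.60 on this measure, the nearest genes were Ppp1r15a (0.19), Klf2 (0.25) and Slc25a25 (0.28). For Dusp1 (0.43) they were C2cd4b (0.16), Arc (0.23) and G0s2 (0.24), and for Dusp6 (0.35) they were Jun (0.17), Igkv4-72 (0.19) and Arc (0.19). Arc, at 4.83 to 6.29, and Igkv4-72, at 5.18 to 5.9, were dim, with log2 values below every array median. For Spry1 (0.19) they were Cd2 (0.09), Zfp36l2 (0.10) and S100a4 (0.10). Ppp1r15a had 10.15, 10.44 and 10.40 in AS lungs, against 9.14, 9.22, 9.28 and 9.15 in AA lungs, so like Spry4 it was not lower in AS 3+4.

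Cell type markers were set beside these differences. B and plasma cell markers, with 5 of 6 measured, had 1 lower and 0 higher in SS than in AS. Their mean relative to AA was -1.16 to -0.65 in SS, against -0.44 to 0.14 in AS. For T cell markers, with 5 of 6 measured, SS against AS had 0 called in limma and 4 with an unadjusted p under 0.05. The T cell mean was -0.31 to -0.14 in SS, against -0.10 to 0.15 in AS, without overlap. Neutrophil markers had a mean of -0.13 to 0.17 in SS, -0.43 to 0.74 in AS, -0.62 to 0.12 in SA and -0.62 to 0.62 in AA. In AS against AA, 3 of the 14 marker lists held a called gene. Lrrn4, 1 of 5 mesothelial markers, differed by -0.60 (limma adjusted p = 0.00976), and the mesothelial mean was -0.44 to -0.09 in AS, against -0.07 to 0.07 in AA. Scgb3a1, 1 of 4 markers of club cells, was higher by 0.89 (limma adjusted p = 0.0366). The club cell mean was 0.20 to 0.26 in AS, against -0.18 to 0.13 in AA. That mean mostly reflected Scgb3a1, as Scgb1a1, Scgb3a2 and Cyp2f2 differed by only 0.013, 0.019 and 0.029. Neither the mesothelial nor the club cell mean overlapped between AS and AA. In SS these means were -0.285 to -0.189 and 0.165 to 0.274, also outside the AA ranges. In SA the mesothelial mean, at -0.147 to -0.087, lay below the AA range too, while the club cell mean, at 0.006 to 0.099, lay inside it. Jchain, 1 of the 5 measured B and plasma cell markers, differed by -1.33 (limma adjusted p = 0.0413), with a list mean that overlapped AA, at -0.44 to 0.14 in AS and -0.43 to 0.50 in AA. The other 11 lists, endothelial markers among them, had 0 of 63 measured genes called in limma and 3 with an unadjusted p under 0.05. The marker differences of AS stand in the same samples as its higher Dusp1, Dusp6 and Spry4. The part of the marker differences in those of the members was not tested.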

How the data were processed

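The authors deposited 1 value per probe set and array from the Affymetrix mouse array, read as log2 from its range of 2.40 to 15.1. Array medians of 6.90 to 6.93 show that these log2 values were normalized between arrays before deposit. How background was corrected and probes were summarised is not given in the sources used here. The submitters' processing notes name limma alone.

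Of 45101 probe sets, 64 controls were left out. Members were taken by their symbol in the platform annotation. For naming genes, the RefSeq symbol of the same gene identifier was used at 34741 probe sets. The 932 probe sets with several symbols and the 9160 with none were not named. Pairs of arrays of a group were compared over probe sets with a mean above 9, by the size (root mean square) of their difference over 300 variable probe sets, divided by that over 3000 stable ones. The ratio was 1.24 and 1.35 for the averaged pairs, SS 1 and 2 and AS 3 and 4, and 2.84 to 5.96 for the other 22.

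A linear model with 4 group means was fitted to 14 samples with limma 3.58.1 in R 4.3.3. Tests were two-sided, with Benjamini-Hochberg adjustment over 45037 probe sets and a threshold of 0.05. The fit was tested on simulated data. Replicates are separate animals per the labels' design text, and their number limits the precision. Genes outside the 9 members were named by rule: up to 6 per list past the threshold with the largest differences, the 2 largest at most where none passed, and the 3 most alike in pattern per called member. Members and lists were chosen with earlier results of these data known. Alternatives were other scalings, array weights, an intensity trend, a filter on dim probe sets, fewer groups or samples, and 16 separate arrays with and without a replicate block.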

Additional observations from a re-analysis of the deposited data

Results flagged for a closer look

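The interaction of Dusp6 drew attention because the adult effect differed between the backgrounds by test, at -0.655 on the log2 scale (limma adjusted p = 0.0325). It was given with its leave-one-out values above. At Spred1, 5 groups of 4 had a sample far from the other 3 by Dixon's test. These were SA replicate 3 at 1423160_at (10.751), AA replicate 1 at 1423161_s_at (10.072), AA replicate 2 at 1423162_s_at (9.186), SA replicate 1 at 1443652_x_at (5.492) and AA replicate 1 at 1445228_at (3.65). Of 48 groups tested, chance alone marks about 1 in 20. All 5 marked groups were at Spred1, which has the most probe sets of the 9 genes, and why they fell there was not tested. None of the marked probe sets was called in a comparison.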

How the results depend on the processing

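The count of called member probe sets in AS minus AA was 3 of 9 with the brightest probe set of each gene tested, against 6 of 24. In SS minus SA it was 1 with array weights, 1 with the compared groups alone and 1 with 16 arrays counted separately, against 0. In SS minus AS it was 1 with the compared groups alone and 10 with 16 arrays, against 6. The interaction count was 3 with 16 arrays, against 1, and the mean adult effect count was 2 with the brightest probe sets and 7 with 16 arrays, against 4. Leaving out 1 sample gave 4 to 6 in AS minus AA, 0 to 0 in SS minus SA and in SA minus AA, 4 to 6 in SS minus AS, 0 to 1 in SS minus AA and in the interaction, and 2 to 5 in the mean adult effect. Over all 45037 probe sets, 699 were called in AS minus AA, against 47 with the compared groups alone and 3565 with 16 arrays, and 436 in SS minus AS, against 131 and 2214. The cause of these changes was not tested, except that fits of fewer groups or probe sets hold fewer samples or tests by construction.

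Same-numbered arrays of different groups correlated at -0.16 to 0.25 in their deviations from the group means, over 0.1 in 8 of 24 pairs, so the numbers were not taken as pairs. An array's best match in another group had its own number in 17 of 48 cases. With a replicate block on 16 arrays, 7 member probe sets were called in AS minus AA, 9 in SS minus AS, 4 in the interaction and 7 in the mean adult effect.

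Sign changes were limited to values that were not called, listed here in log2. In SS minus SA, Dusp1 was 0.007 with array weights, Dusp5 -0.005 with 16 arrays with or without the replicate block, and Spred2 0.001 after further quantile normalization. In the interaction with 16 arrays, with or without the block, Spry2 was 0.018 and Spred2 -0.015. In the mean adult effect, Spry1 was 0.009 with array weights and Spred2 0.0 after quantile normalization. Leaving out 1 sample turned the sign within these ranges. In AS minus AA they were -0.084 to 0.155 for Spry2 and -0.086 to 0.015 for Spred2. In SS minus SA they were -0.147 to 0.111 for Dusp1, -0.029 to 0.041 for Dusp5, -0.063 to 0.13 for Spry2 and -0.081 to 0.439 for Spry4. In SA minus AA they were -0.062 to 0.019 for Spry1, -0.178 to 0.015 for Spry2 and 0.0 to 0.081 for Spred2. In SS minus AS Spry2 ranged from -0.203 to 0.036. In SS minus AA the ranges were -0.093 to 0.006 for Spry2, -0.253 to 0.267 for Spry4 and -0.024 to 0.057 for Spred2. In the interaction they were -0.13 to 0.116 for Spry2 and -0.039 to 0.062 for Spred2, and in the mean adult effect -0.077 to 0.003 for Dusp4, -0.07 to 0.021 for Spry1 and -0.026 to 0.099 for Spry2. Across genes and alternatives, 1342 values kept direction and call, 33 lost a call, 18 gained one and 38 changed sign.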

Other observations

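Members of the growth factor pathway upstream of these feedback genes were mostly without calls. Of 19 measured ligand genes, 1 was lower in AS than in AA, Hgf, which encodes hepatocyte growth factor (-0.72, limma adjusted p = 0.0343), and 1 was lower in SS than in SA, Fgf18, a fibroblast growth factor of lung development (-0.45, limma adjusted p = 0.0465). Of 17 receptor tyrosine kinase genes, Egfr was higher (0.47, limma adjusted p = 0.0184) and Kit lower (-0.50, limma adjusted p = 0.0162) in SS than in AS. In AS against AA 0 of the 17 were called in limma, and 3 had an unadjusted p under 0.05.

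The stress branch of the cascade, with 17 of 18 JNK and p38 genes measured, had 1 gene higher and 1 lower in SS than in SA. These were Map3k6, an upstream kinase (1.49, limma adjusted p = 0.00272), and Map2k6, an activator of p38 (-0.43, limma adjusted p = 0.0493). In AS against AA 0 of the 17 were called in limma and 2 had an unadjusted p under 0.05. The interaction of Map3k6 was 1.15 (limma adjusted p = 0.174).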
